A study of Mus musculus with 9 samples.

Results

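The genes described here are 31 genes of glucose breakdown and of the response to low oxygen, measured in the embryonic mouse cardiac outflow tract. They were taken by symbol from the 48397 gene symbols of the count files, and all 31 were found. They fall into 17 genes of glycolysis, counting glucose uptake and lactate export, and 14 other targets of the hypoxia-inducible factors (HIF). All 31 passed the filter on low counts that left 16522 genes for testing, and the lowest count of a member in any library was 19, for Car9.

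The study compared dissected outflow tracts of C57BL/6J embryos at embryonic day 12.5 that were either Nkx2-5+/+ (wild type, 4 libraries) or homozygous for a deletion of an anterior second heart field enhancer of Nkx2-5 (deletion, 5 libraries). The 2 genotypes were littermates. The labels do not say whether each library came from 1 embryo, so each p-value covers the spread among these libraries only, and that spread can be technical. The tissue was measured in bulk, so that fewer cells of a type and less RNA per cell cannot be told apart.

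Glycolysis converts glucose to pyruvate in the cytosol, and lactate dehydrogenase and a lactate exporter carry part of that pyruvate out of the cell as lactate. HIF1A and EPAS1 are transcription factor subunits that are destroyed when oxygen is present, because prolyl hydroxylases mark them for the VHL ubiquitin ligase. When oxygen is low they pair with ARNT and bind a short DNA element with the core ACGTG or GCGTG, near many glycolysis genes and near genes of angiogenesis, mitophagy and collagen maturation. The fetal heart muscle uses glycolysis strongly, and the myocardial wall of the outflow tract is known as a hypoxic region of the embryonic heart.

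The sequences just before an annotated transcription start are shown for some of the members that differed between libraries. They were chosen because ACGTG, a core of the hypoxia response element, could be read in them. These members differed by library number in the test described further on. Their last 100 bases before the RefSeq start held ACGTG on either strand, with the stretch ended at the first base of any annotated exon. For Slc16a3 this left 86 bases, which end before the start. This held for 4 of the 12 members called in that test. The same count was not taken for the other members or for all genes, so it has no background here. GCGTG, the other core, was not part of this choice and is not marked in the stretches. The stretches, from the RefSeq promoter table of GRCm38.p6, run 5′ to 3′ on the gene's strand, and capitals mark ACGTG or its reverse complement CACGT. They are chr6:82774455-82774554 (minus strand) for Hk2, a hexokinase, and chr11:120948967-120949052 (plus strand) for Slc16a3, the lactate exporter MCT4. For the collagen prolyl hydroxylase subunits they are chr10:59323196-59323295 (plus strand) for P4ha1 and chr11:54100824-54100923 (plus strand) for P4ha2. The stretches of Slc16a3 and P4ha2 lie inside these genes as GENCODE annotates them, from 120948480 and 54100095 on.
Hk2: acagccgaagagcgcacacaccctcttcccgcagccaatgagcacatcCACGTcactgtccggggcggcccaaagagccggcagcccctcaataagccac
Slc16a3: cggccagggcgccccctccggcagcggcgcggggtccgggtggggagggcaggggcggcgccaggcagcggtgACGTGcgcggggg
P4ha1: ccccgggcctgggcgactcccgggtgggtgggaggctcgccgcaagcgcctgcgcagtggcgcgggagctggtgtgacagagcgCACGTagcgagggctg
P4ha2: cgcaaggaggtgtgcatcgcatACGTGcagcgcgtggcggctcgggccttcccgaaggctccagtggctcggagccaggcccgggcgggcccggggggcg
The match began 52 bases before the start in Hk2, 27 in Slc16a3, 16 in P4ha1 and 78 in P4ha2.

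In windows of 300 bases (250 before and 50 after each start), ACGTG on either strand was found for 22 of the 29 members with an entry (75.9%), against 21.8% of 27025 genes in the table. By list it was found for 12 of 17 glycolysis genes (70.6%) and 10 of 12 HIF targets (83.3%). Bnip3l and Ndrg1 had no entry. GCGTG was found for 20 of 29 members (69.0%) against 35.2% of all genes, and one or both motifs for 27 of 29 (93.1%) against 46.7%. CACGTG, the palindrome that contains ACGTG on both strands, was found for 3 of 29 members (10.3%) against 8.09% of all genes. Genes with several annotated starts were counted once if any window held the motif, so genes with more starts had more chances to hold it. A match describes these letters only, and binding of HIF was not measured.

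The libraries held between 27707435 and 49094225 reads assigned to genes. Nkx2-5, the gene whose enhancer was deleted, stood at 18.8, 42.0, 44.99 and 39.5 CPM (the library's reads scaled to a common total with TMM factors) in wild types 1 to 4 and at 16.5, 24.4, 17.8, 11.4 and 17.4 in deletions 1 to 5. Wild type 1 thus lay inside the deletion range. The log2 fold change was -1.05 (SE 0.26), with an unadjusted p of 0.00225 and an adjusted p of 0.896 from the quasi-likelihood test of edgeR, adjusted by Benjamini-Hochberg over all tested genes. A gene is called here when that adjusted p is under 0.05. Markers of the labelled tissue were present, with 18 of 18 sarcomere genes and 11 of 11 smooth muscle genes counted in every library. The library names also carry 1 of 3 numbers whose meaning is not given in the sources used here: 220 for wild types 1 and 2 and deletions 1 and 2, the second for wild types 3 and 4 and deletions 3 and 4, and the third for deletion 5. The third number occurs once and could be a miswritten form of the second, so deletion 5 was pooled with the second number in the comparisons by number. Its counts lay farther from those libraries (chi-square per degree of freedom 36.2 to 52.6) than they lay from each other (15.8 to 28.5). Of the libraries numbered 220, deletion 1 lay at 50.9 from deletion 5, inside that range, and the others at 111.7 to 143.1.

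Levels per length describe which isoforms the tissue used. Lactate dehydrogenase A (Ldha), which converts pyruvate to lactate, was the most abundant member at 1784 ± 530 CPM per kilobase of annotated exon (SD, n = 4 wild types), against 252 ± 52.7 for Ldhb, the heart-type subunit. Aldoa, the muscle-type aldolase, stood at 1044 ± 256 CPM per kilobase and its brain-type relative Aldoc at 12.9 ± 3.41. The symbol Aldoa covers 2 annotated genes, and the longer one was used for its length. Pyruvate kinase (Pkm) stood at 664 ± 186, triose phosphate isomerase (Tpi1) at 764 ± 167 and enolase 1 (Eno1) at 377 ± 143 CPM per kilobase. Among the phosphofructokinases, the liver-type Pfkl stood at 114 ± 31.9, the platelet-type Pfkp at 92.7 ± 30.5 and the muscle-type Pfkm at 33.1 ± 4.64 CPM per kilobase. Pfkl and Pfkp did not differ beyond their spread. Hexokinase 1 (Hk1) stood at 49.4 ± 15.2 CPM per kilobase and hexokinase 2 (Hk2) at 11.4 ± 3.84. Carbonic anhydrase 9 (Car9), a widely used hypoxia marker, was the lowest member at 1.08 ± 0.945 CPM per kilobase. Counts of several of these genes are uncertain because other annotated genes, mostly pseudogenes, share their sequence. The share of 50-base stretches of the transcript that were also found in another gene was 82.5% for Gapdh, 72.2% for Eno1, 68.0% for Pgk1, 62.4% for Bnip3, 41.5% for Pgam1, 36.6% for Higd1a and 34.4% for Pkm.

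The deletion and wild-type outflow tracts did not differ in any member at the threshold. Of the 31 members 0 were called, as were 0 of 16522 genes (0%). At an unadjusted p under 0.05 there was 1 of 31 members, P4ha1, against 870 of all genes (5.27%). The DESeq2 test gave 3 such members, against 1273 of the 18944 genes to which it gave an adjusted p. It called 0 members, against 10 genes higher and 28 lower. No member had genotype groups that did not overlap, against 298 of all genes (1.80%). In simulated counts for this comparison with 16522 genes, edgeR called 22% of genes changed by 1.5-fold, 60% of those changed by 2-fold and 78% of those changed by 4-fold, with 16 false among 135 calls. The simulated libraries were independent, without groups by library number, and the changed genes were drawn from all genes tested. These rates therefore need not hold for the members in these data.

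The glycolysis genes were spread evenly around no difference. Their median log2 fold change was 0.03, with 9 of 17 above 0, against a median of 0.0029 and 50.6% above 0 over all genes tested. Slc2a1, the glucose transporter GLUT1, stood at 179.8, 349, 514 and 506 CPM in wild types 1 to 4 and at 235, 248, 430.1, 338 and 444 CPM in deletions 1 to 5. All 5 deletion libraries lay inside the wild-type range, and the log2 fold change was -0.19 (SE 0.31). Eno1 stood at 446, 962, 1239 and 1191 CPM in the wild types and at 752, 877, 1342, 1108 and 1334 CPM in the deletions. The deletion libraries reached slightly above the wild types here, with a log2 fold change of 0.17 (SE 0.28). Ldha stood at 1983, 3415, 4325 and 3800 CPM in the wild types and at 3395, 2971, 4223, 3640.1 and 4822 CPM in the deletions, and gave the same log2 value of 0.17 (SE 0.22). Wild type 1 was the lowest library for all 3 genes.

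Across the other steps of glycolysis the log2 fold changes were small beside their errors. Hk1 and Hk2, which trap glucose in the cell, gave 0.03 (SE 0.21) and 0.04 (SE 0.29). The phosphofructokinase genes, for the committed step, gave 0.20 (SE 0.20) for Pfkl, -0.13 (SE 0.26) for Pfkp and -0.18 (SE 0.13) for Pfkm. Gpi1 acts between the hexokinase and phosphofructokinase steps, and Aldoa, Tpi1, Gapdh, Pgk1, Pgam1 and Pkm act between phosphofructokinase and pyruvate. Among Gpi1 and these enzymes the values ranged from -0.05 for Gpi1 to 0.18 for Pgk1. Slc16a3 gave -0.02 (SE 0.26). Aldoc had the glycolysis value farthest from 0, at 49.8, 44.2, 29.9 and 29.8 CPM in the wild types and 28.2, 37.4, 26.6, 29.6 and 26.1 CPM in the deletions. Its log2 fold change was -0.38 (SE 0.18), with an unadjusted p of 0.0598 and an adjusted p of 0.896 in edgeR's test. The high wild-type libraries were 1 and 2, both numbered 220.

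The HIF targets lay mostly above 0 without passing the test. Their median log2 fold change was 0.17, with 12 of 14 above 0, and Ndrg1 and P4ha2 below. P4ha1, a subunit of the enzyme that hydroxylates collagen prolines, stood at 141.8, 124.9, 171 and 154 CPM in wild types 1 to 4 and at 167, 138 and 197 CPM in deletions 1 to 3, with 220.03 and 237 CPM in deletions 4 and 5. Deletions 3 to 5 exceeded every wild type and deletions 1 and 2 did not. The means were 148 ± 19.5 CPM (SD, n = 4) and 192 ± 40.1 CPM (SD, n = 5), with a log2 fold change of 0.37 (SE 0.16) and an adjusted p of 0.896 in edgeR's test (unadjusted 0.0406). An exact two-sided permutation test on log2 CPM over all 126 labellings gave p = 0.103, where the smallest possible is 0.00794. That test did not keep libraries of 1 replicate number or library number together. It was run on P4ha1 because the unadjusted p of this gene was the smallest of the members. The deletion library was the higher one in 4 of 4 pairs of the same replicate number. How many of all genes did so was not counted. Neither the permutation test nor the count of pairs allows for the choice of this gene. With the replicate number as a block the log2 fold change was 0.27 (adjusted p = 0.899 in edgeR's test). Within library number 220 the log2 difference was 0.19 (SE 0.14) and within the others 0.42 (SE 0.13).

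The HIF target with the highest log2 fold change was Ankrd37, a small ankyrin repeat protein gene, at 3.87, 5.74, 4.77 and 4.91 CPM in the wild types and at 8.07, 6.21, 6.10, 4.81 and 8.26 CPM in the deletions. All deletion libraries but deletion 4 exceeded the wild types, and the log2 fold change was 0.47 (SE 0.22, unadjusted p = 0.057, adjusted p = 0.896 in edgeR's test). Of its annotated exon length 26.2% lies opposite exons of Lrp2bp and Ufsp2, whose reads could be included because the strand setting of the counting is not stated. Ddit4, an inhibitor of mTOR signalling, stood at 6.01, 6.03, 5.84 and 6.73 CPM in the wild types and at 9.58, 9.11, 7.54, 5.95 and 7.44 CPM in the deletions. Deletion 4 was again the library inside the wild-type range, and the log2 fold change was 0.37 (SE 0.18). Vegfa, the main angiogenic growth factor, stood at 27.6, 32.7, 48.3 and 37.8 CPM in the wild types and at 39.4, 44.04, 47.2, 45.8 and 50.6 CPM in the deletions. Here wild type 3 lay among the deletions, and the log2 fold change was 0.31 (SE 0.15).

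The remaining HIF targets had smaller values. Pdk1, a kinase that limits pyruvate entry into mitochondria, gave 0.22 (SE 0.15). The mitophagy receptors Bnip3 and Bnip3l gave 0.25 (SE 0.18) and 0.17 (SE 0.12). Egln1 and Egln3, oxygen-sensing prolyl hydroxylases that HIF itself induces, gave 0.12 (SE 0.15) and 0.17 (SE 0.15). Higd1a, a mitochondrial protein gene, gave 0.16 (SE 0.16). P4ha2 gave -0.02 (SE 0.20), Adm, for the vasodilator adrenomedullin, 0.06 (SE 0.36), and Ndrg1 -0.13 (SE 0.28). Car9, at 0.53 to 4.82 CPM, gave 0.05 (SE 0.55), so that its 95% interval ran from -1.16 to 1.26.

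**Figure D1:**
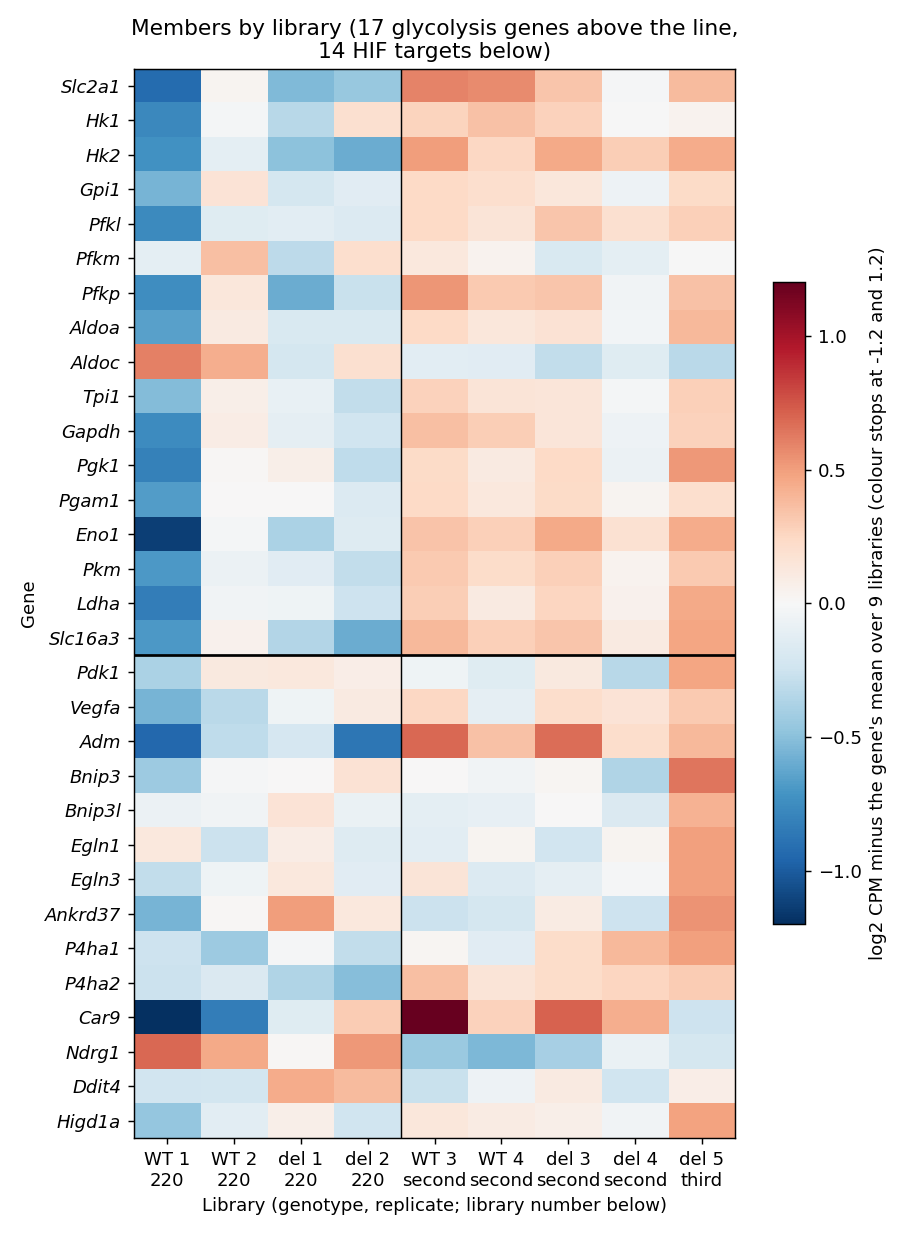
Log2 CPM of each member minus the mean of that gene over the 9 libraries, by library, with 17 glycolysis genes above the horizontal line and 14 HIF targets below, and libraries numbered 220 left of the vertical line. Wild type 1 is the lowest library for 15 of 17 glycolysis genes, and deletion 5 the highest for 9 of 14 HIF targets.

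Wild type 1 stood apart in the glycolysis genes. In this library the glycolysis members stood at a median of 52.6% of the mean of the other wild types, with 16 of 17 below it. List medians of this kind were taken on log2 of CPM plus 0.5. Slc2a1 was at 39.4%, Eno1 at 39.5%, Pfkp at 47.3%, Gapdh at 49.9% and Ldha at 51.5% of the other wild types, and only Aldoc was above, at 143.9%. Wild type 1 was the lowest of all 9 libraries for 15 of 17 glycolysis genes (88.2%) and for 8 of 14 HIF targets (57.1%), against 2214 of 16522 genes (13.4%). The HIF targets were at a median of 77.7% of the other wild types. Car9 (19.4%) and Adm (42.2%) were the lowest of them, and Ndrg1 was at 173%. The median over all genes with at least 1 CPM was 99.5%.

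Other gene lists moved in wild type 1 as well. All 18 sarcomere genes were below the mean of the other wild types there, at a median of 50.4%, and their summed level was 12680 CPM against 23915 to 28409 CPM in wild types 2 to 4. The deletions had 16680 to 22298 CPM, so that wild type 1 was the lowest library for the sarcomere sum too. The summed cushion mesenchyme level, 15962 CPM, was the highest of the 9 libraries, against 9740 to 12262 CPM in the others. Erythroid genes were at a median of 176% of the other wild types, although their sum was 6673 CPM in wild type 1 and 10354 CPM in wild type 2. Neuron and Schwann cell genes were at 187%. In CPM the neuron and Schwann sum was 138.9 in wild type 1, 77.9 to 97.3 in the other wild types and 3141 in deletion 2. Nkx2-5 itself was at 44.7% of the other wild types. The part of these lists in the low glycolysis values was not tested.

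Without wild type 1 the glycolysis genes turned below 0 and the HIF targets stayed above it. The median log2 fold change of the glycolysis genes became -0.15, with 1 of 17 above 0 (Pfkl, 0.03). For the HIF targets it was 0.14, with 11 of 14 above 0. Slc2a1 moved from -0.19 to -0.43 (SE 0.23), Pfkp from -0.13 to -0.33 (SE 0.21) and Gapdh from -0.04 to -0.24 (SE 0.13). Ldha moved from 0.17 to -0.01 (SE 0.16) and Eno1 from 0.17 to -0.06 (SE 0.20). Among the HIF targets P4ha1 was nearly unmoved at 0.36 (SE 0.18), as was Ddit4 at 0.35 (SE 0.21), whereas Vegfa went from 0.31 to 0.20 (SE 0.14). No member was called without wild type 1, and the lowest adjusted p of a member was 0.83 in edgeR's test. None had an unadjusted p under 0.05 there, against 984 of 16910 genes (5.82%).

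Other libraries moved the glycolysis median as well, in both directions. It was 0.13 without wild type 3, with 14 of 17 above 0, and 0.11 without wild type 4, with 13 of 17 above 0. It was -0.06 without deletion 5, with 6 of 17 above 0, and -0.04 without deletion 3, with 7 of 17 above 0. Without both wild type 1 and deletion 2, the library with the high neuron and Schwann sum, the glycolysis median was -0.08 and that of the HIF targets 0.15. The glycolysis genes therefore had no direction between the genotypes that held when single libraries were left out.

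**Figure D2:**
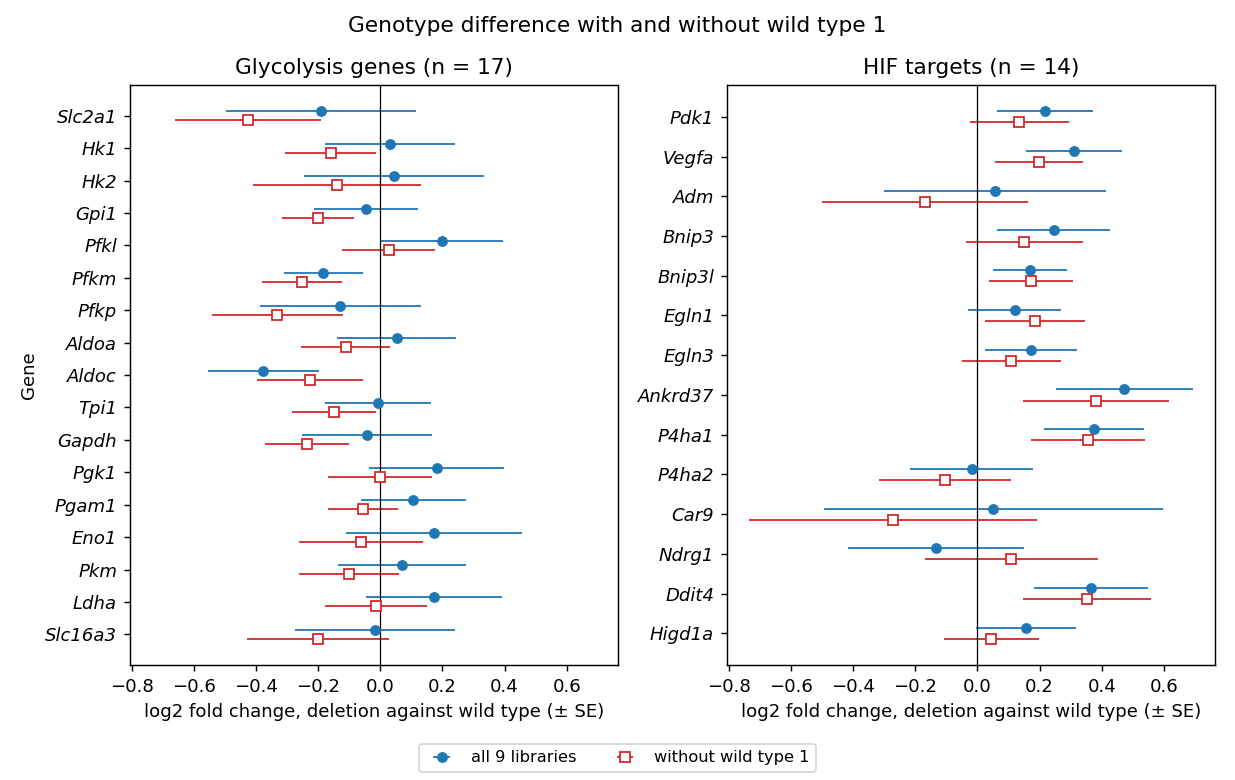
Log2 fold change of deletion against wild type with its standard error for each member, with all 9 libraries (filled circles) and without wild type 1 (open squares). Without wild type 1, 16 of 17 glycolysis genes lie below 0, while 11 of 14 HIF targets remain above 0.

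Deletion 5 was the high end of the HIF targets. It was the highest of 9 libraries for 9 of 14 HIF targets (64.3%) and for 6 of 17 glycolysis genes (35.3%), against 11.7% of all genes. Bnip3 stood at 118, 159, 161 and 156 CPM in the wild types and at 161, 180.4, 163, 125 and 251 CPM in the deletions. Pdk1 stood at 212, 301, 267 and 249.9 CPM in the wild types and at 302, 292, 299.8, 219.9 and 383 CPM in the deletions. In both genes deletion 5 lay far above the rest and deletion 4 was among the lowest libraries. The median log2 fold change of the HIF targets was 0.08 without deletion 5, with 10 of 14 above 0, and 0.07 with the replicate number as a block, in which deletion 5 has no partner. It was 0.28 without wild type 3.

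Cell-type lists also had values away from 0 between the genotypes. All 11 smooth muscle genes had log2 fold changes below 0, with a summed level of 4347 to 4812 CPM in the wild types and 2905 to 4291 CPM in the deletions, which did not overlap. The sarcomere genes were below 0 in 17 of 18 cases, at a median of -0.21, and in 18 of 18 without wild type 1, at a median of -0.36. Epicardium genes were below 0 in 8 of 10 cases, at a median of -0.55, and cushion mesenchyme genes above 0 in 8 of 11, at a median of 0.37. Neuron and Schwann genes had a median of 2.68, with deletion 2 holding by far the highest sum. None of these genes was called in edgeR's test, and DESeq2 called 1 epicardium gene lower. Smooth muscle and sarcomere genes mark muscle cells, which express glycolysis enzymes too. The part of all these lists in the members' values was not tested.

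**Figure D3:**
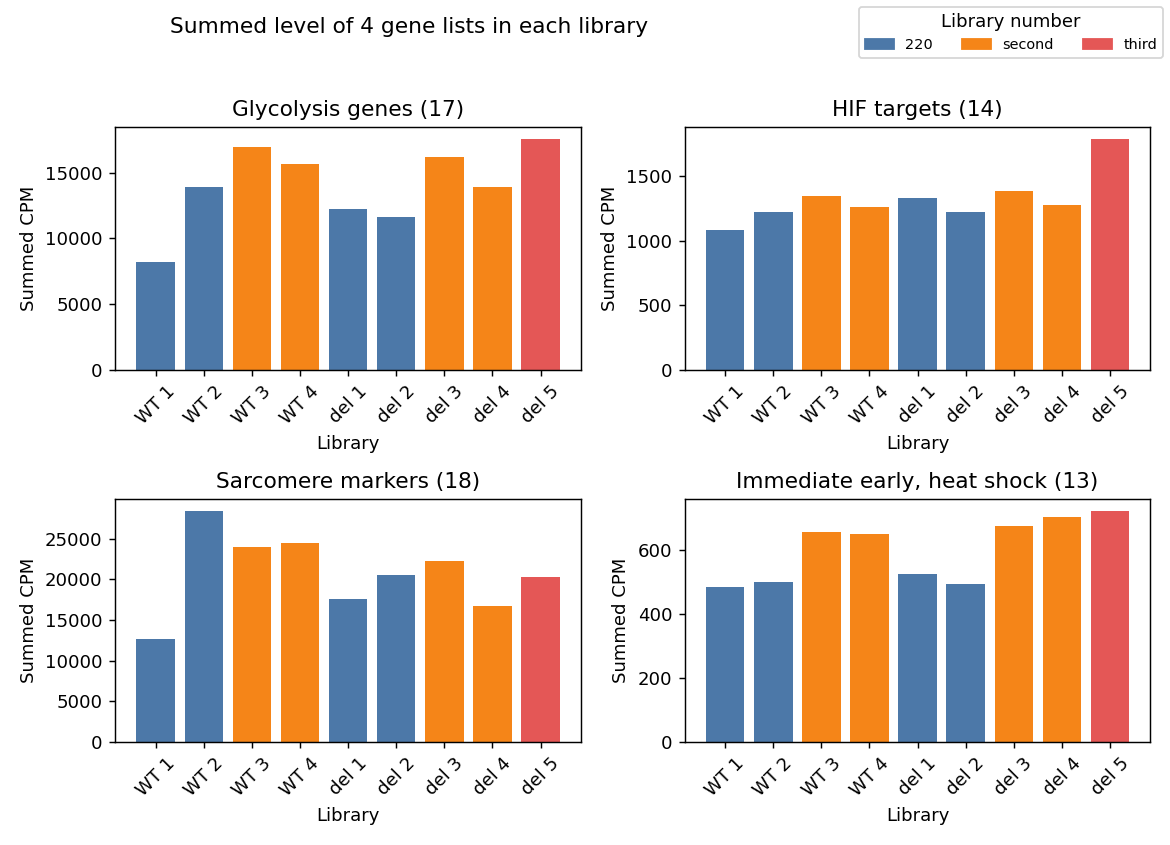
Summed CPM of 4 gene lists in each library, coloured by the number in the library name. The glycolysis sum (8236 to 17601 CPM) and the sarcomere sum are both lowest in wild type 1, the HIF target sum is highest in deletion 5 at 1790 CPM, and the immediate early and heat shock sum is 486 to 527 CPM in libraries numbered 220 and 651 to 724 CPM in the others.

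The members split by library number more than by genotype. With genotype as a term, 10 of 31 members were higher in the libraries with the second and the third number than in those numbered 220, and 2 were lower, against 883 (5.34%) and 742 (4.49%) of all genes. Of the glycolysis genes 7 were higher and 1 lower, with a median log2 difference of 0.44 and 15 of 17 above 0. Of the HIF targets 3 were higher and 1 lower, with a median of 0.14 and 11 of 14 above 0. The median over all genes was -0.02. This comparison was made because the numbers group the libraries in these data, so it describes these 9 libraries, and what the number stands for cannot be told from the labels.

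Hk2 and Slc2a1 showed the largest glycolysis differences. Hk2 stood at 37.5, 56.9, 43.9 and 40.8 CPM in wild types 1 and 2 and deletions 1 and 2, all numbered 220, and at 87.4, 73.5, 84.8, 75.8 and 83.96 CPM in wild types 3 and 4 and deletions 3 to 5. The number groups did not overlap and both genotypes lay on each side, with a log2 difference of 0.86 (SE 0.13, adjusted p = 0.00579 in edgeR's test). Slc2a1, whose values are given above, rose by 0.83 (SE 0.17, adjusted p = 0.018 in edgeR's test), although its groups overlapped because wild type 2 exceeded deletion 4. Slc16a3 stood at 184, 308, 232 and 196 CPM in the libraries numbered 220 and at 389, 361, 373, 319 and 413 CPM in the others. Its groups did not overlap, and its log2 difference was 0.70 (SE 0.15, adjusted p = 0.0193 in edgeR's test).

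The other glycolysis genes called higher were Pfkl (0.51), Pfkp (0.65), Eno1 (0.70) and Pkm (0.52), each on the log2 scale. Eno1 and Pkm are among the genes with much shared sequence, and 17.4% of the exon length of Pfkp lies opposite exons of Pitrm1. Aldoc was called lower, by -0.44 (SE 0.12), as the only glycolysis gene called in that direction. Ldha (0.49), Gapdh (0.44), Pgk1 (0.42), Aldoa (0.39), Hk1 (0.38), Tpi1 (0.37), Pgam1 (0.35) and Gpi1 (0.32) gave positive log2 differences that did not pass the threshold. In DESeq2's test Ldha, Gapdh and Tpi1 passed it as well. Pfkm gave -0.06 (SE 0.13).

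Among the HIF targets the split was between genes and did not cover the list. P4ha2 stood at 129.7, 137, 121 and 109 CPM in the libraries numbered 220 and at 198, 173, 181, 185 and 192 CPM in the others. The groups did not overlap, with a log2 difference of 0.60 (SE 0.08, adjusted p = 0.00556 in edgeR's test). Adm stood at 7.48, 11.6, 12.5 and 7.89 CPM against 23.2, 18.3, 22.9, 16.7 and 18.9 CPM, and rose by 1.02 (SE 0.19, adjusted p = 0.0131 in edgeR's test). P4ha1 was called higher by 0.41 (SE 0.10). Ndrg1, a stress-induced gene, was lower, at 21.0, 17.9, 13.2 and 18.7 CPM against 9.56, 9.01, 9.91, 12.3 and 11.3 CPM, with a log2 difference of -0.77 (SE 0.17, adjusted p = 0.0216 in edgeR's test). Of its exon length 19.2% lies opposite exons of other annotated genes. Pdk1 (0.02), Bnip3l (0.01), Egln1 (0.09), Bnip3 (0.13), Egln3 (0.16) and Ankrd37 (-0.08) gave log2 differences smaller than or close to their errors, and Vegfa (0.34), Higd1a (0.33), Car9 (1.08) and Ddit4 (-0.20) did not pass the threshold, although Vegfa did in DESeq2's test.

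**Figure D4:**
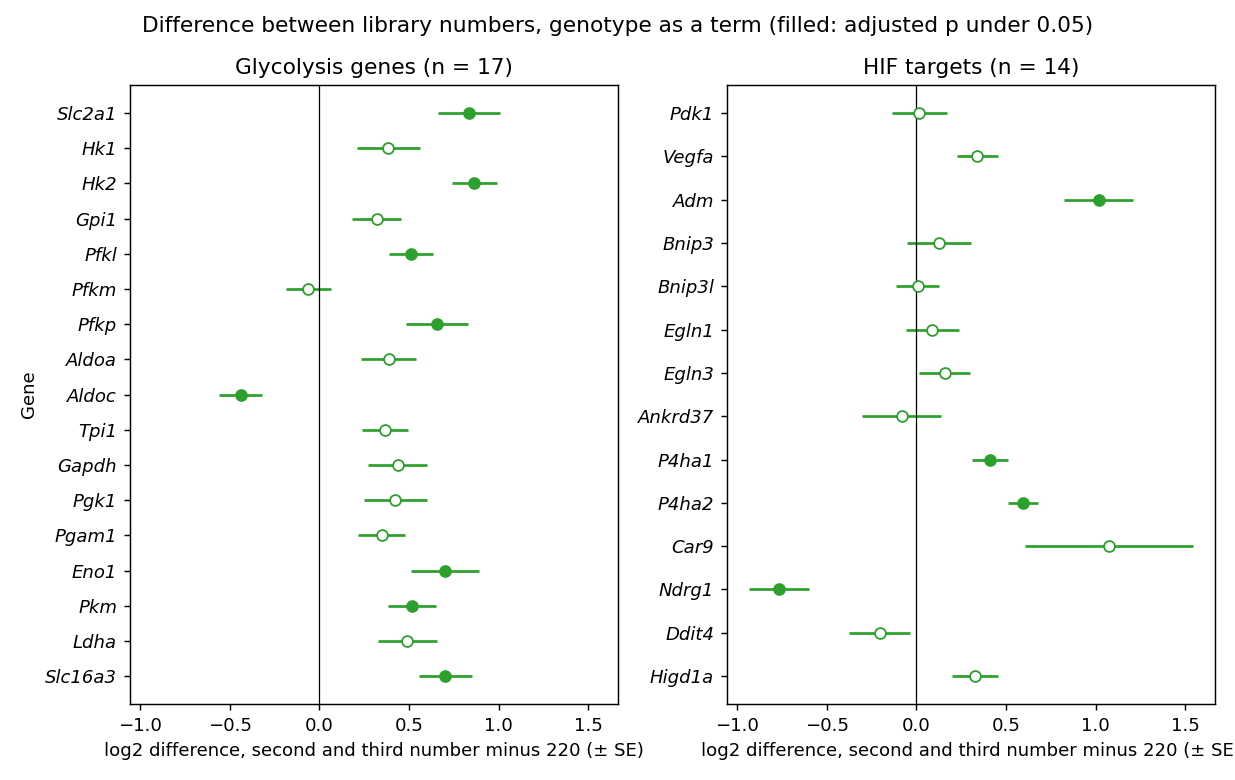
Log2 difference of the libraries with the second and the third number minus those numbered 220, with genotype as a term and its standard error, for each member, with members of adjusted p under 0.05 filled. Among the glycolysis genes 15 of 17 lie above 0, while the HIF targets range from -0.77 for Ndrg1 to 1.08 for Car9.

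The count of members called by library number depended on single libraries. It was 2 without wild type 3, 4 without wild type 4 and 5 without deletion 3, and between 8 and 10 without any other library. Without deletion 5 it was 8. The count of all genes called by library number was also lower in each of these fits, over the range given at the end. Hk2 and P4ha2 were called in all 9 of these fits, Slc16a3 and Adm in 8 and Slc2a1 in 7. Pfkl was called in 6, Ndrg1 in 5, Pfkp, Eno1 and Pkm in 3 each, P4ha1 in 2 and Aldoc in 1. Within the wild types alone the glycolysis median was 0.60, with 15 of 17 above 0, and within the deletions alone 0.37, also with 15 of 17 above 0. Both are contrasts of 1 fit to all 9 libraries, with a shared spread estimate. Each contrast called 1 of 31 members, Ndrg1 in the wild types and P4ha2 in the deletions. Of all 16522 genes, 308 were called higher and 432 lower in the wild types. In the deletions 20 were called higher and 42 lower. Groups that did not overlap, with the lower level in number 220, were found for 9 members, against 1224 of all genes (7.41%). They were Hk2, Pfkl, Pgam1, Eno1, Pkm, Ldha and Slc16a3 of the glycolysis genes and Adm and P4ha2 of the HIF targets.

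Immediate early and heat shock genes moved with the library number too. Their log2 differences were above 0 for 13 of 13 genes, at a median of 0.49, with 4 called higher. For this list and those below, the background was 5.34% of all genes called higher and 4.49% called lower. Their summed level was 486 to 527 CPM in libraries numbered 220 and 651 to 724 CPM in the others, and none of them was at 0 in any library. Of the sarcomere genes 0 of 18 were called, at a median of 0.03. Of the cushion mesenchyme genes 5 of 11 were called higher and 1 lower, and of the endothelium genes 1 of 12 was called higher and 4 lower. Neuron and Schwann genes were below 0 in 12 of 12 cases, with 2 called lower. Their sum was 3141 CPM in deletion 2, 94.2 to 138.9 CPM in the other libraries numbered 220 and 77.9 to 109 CPM in the rest. Within the wild types alone 9 of these 12 genes were below 0. Erythroid sums ranged from 1887 to 10354 CPM in libraries numbered 220 and from 1830.3 to 5730 CPM in the others. The part of handling, of cell composition and of blood in the members' difference was not tested.

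The genotype difference of the members did not pass a test of change with the library number. The interaction of genotype and number called 0 members, against 10 of all genes (0.0605%), and the lowest adjusted p of a member was 0.626 in edgeR's test. Car9 alone of the 31 members had an unadjusted p under 0.05, at 0.0278 in edgeR's test, against 1215 of 16522 genes. It stood at 0.53 and 1.07 CPM in wild types 1 and 2 against 1.71 and 2.34 CPM in deletions 1 and 2, and at 4.82 and 2.30 CPM in wild types 3 and 4 against 3.09, 2.57 and 1.59 CPM in deletions 3 to 5. Within number 220 the glycolysis median was 0.04 and the HIF target median 0.20, and within the others -0.05 and 0.16. No member was called within either.

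The machinery that controls HIF gave no call between the genotypes. Of 14 genes 0 were called and 1 had an unadjusted p under 0.05, against 5.27% of all genes. That gene was Hif1a, for the oxygen-regulated HIF1 subunit, at 361, 398, 383 and 412 CPM in the wild types and at 336, 357, 291, 295 and 334 CPM in the deletions. All deletion libraries were below all wild types, and 1.80% of all genes had genotype groups that did not overlap in either direction. The log2 fold change of Hif1a was -0.27 (SE 0.09, unadjusted p = 0.0145, adjusted p = 0.896 in edgeR's test). Within number 220 its log2 fold change was -0.13 (SE 0.12) and within the others -0.37 (SE 0.11). Epas1, for the HIF2 subunit, gave -0.13 (SE 0.32), Arnt, their partner, -0.17 (SE 0.10) and Vhl 0.04 (SE 0.13). The hydroxylase genes Egln2 and Hif1an gave 0.00 (SE 0.08) and 0.12 (SE 0.17). By library number 2 machinery genes were higher and 1 lower, against 5.34% and 4.49% of all genes. Among them were Hif1an (0.46, SE 0.09) and Epas1 (-0.84, SE 0.19).

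Of the other HIF targets on the list 37 of 38 were tested, and 0 were called between the genotypes. The members of that list with an unadjusted p under 0.05 were Tfrc, the transferrin receptor that imports iron, at 0.78 (SE 0.28), Plod1, a collagen lysyl hydroxylase, at -0.26 (SE 0.10), and Vldlr, a lipoprotein receptor, at -0.42 (SE 0.15), each with an adjusted p of 0.896 in edgeR's test. The share of all genes with such an unadjusted p was 5.27%. The median of that list was 0.13, with 23 of 37 above 0. By library number 12 of the 37 were higher and 0 lower, at a median of 0.30. Of all genes, 5.34% were called higher and 4.49% lower by number, which is the background for the next 2 lists too. Of 17 other glycolysis and lactate genes tested, 0 were called between the genotypes, and 2 were higher and 1 lower by number. Of 16 genes of pyruvate entry and the pentose phosphate pathway, 0 were called between the genotypes, and 2 were higher and 2 lower by number.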

How the data were processed

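RNA came from dissected outflow tracts, with RNeasy extraction and a low-input SMART-Seq library kit, per the labels' protocols. The files deposited by the authors give read counts, as whole numbers, for each symbol. The submitters' processing notes name the mm10 build, STAR 2.5.0c, HTSeq 0.6.0, Picard and DESeq2, in no order. For the annotation and the strand of counting nothing is stated. The 5 rows that name no gene held 20.6% to 23.5% of the reads and were left out.

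Groups follow the sample titles. The main test was the robust quasi-likelihood test of edgeR 4.0.16 (R 4.3.3) with TMM factors, filterByExpr at a minimum count of 10, two-sided, and a Benjamini-Hochberg threshold of 0.05. Alternatives were limma-voom (limma 3.58.1) and DESeq2 1.42.0. Intervals are at 95%, and log2 CPM used a prior count of 2. The steps were tested on simulated data. The members, lists and tests were chosen with earlier results of these data known. Named are all members, Nkx2-5, 6 HIF machinery genes, and of each other pathway list up to 3 genes per direction with an unadjusted p under 0.05. Ldhb was added after its values were seen. Library numbers were read from the names of the deposited libraries. Exon lengths and overlaps come from GENCODE on GRCm38 (mm10), and promoter sequences from RefSeq.

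Replicate numbers are shared between the genotypes. Libraries of 1 replicate number deviated together from their group means, with correlations of 0.137 to 0.242, which meets the rule for pairing. Wild types and deletions of 1 library number but different replicate numbers gave 0.15 to 0.236. Pairing by replicate number therefore cannot be told apart here from the shared library number. The main fit has no such block, and the fit with it is given as an alternative. The mean correlation was 0.193 within a library number and -0.127 between them.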

Additional observations from a re-analysis of the deposited data

Results flagged for a closer look

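Gpi1, the glucose-6-phosphate isomerase gene, stood at 356 CPM in wild type 1, against 587 CPM in the next wild-type library. The gap was 0.891 of the range of the 4 wild types. Bnip3, a mitophagy receptor gene, stood at 118 CPM in wild type 1, against 156 CPM in the next, a gap of 0.87 of the range. In each case 1 library lay far from the other 3. They were the only such values in 66 groups examined (each member and the mean log2 CPM of each list, in both genotypes), and chance alone gives such a gap in about 1 in 20 groups. In wild type 1 the sarcomere genes were at a median of 50.4% of the other wild types as well. Their part in these values was not tested.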

How the results depend on the processing

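No member was called between the genotypes under any of 22 settings. Genes called between the genotypes numbered 0 with edgeR, 38 with DESeq2 and 4 with limma-voom, and 0 to 1 when single libraries were left out. The glycolysis median was 0.03, -0.07 with limma-voom and -0.15 to 0.13 over the left-out libraries. The HIF target median was 0.17, and 0.08 to 0.28. With the replicate block, which pairs the samples by replicate number, the medians were -0.06 and 0.07, and it changed no call. No such block could be fitted to the library number, in which the replicate numbers are nested. Genes called by library number went from 1625 to 3075 with DESeq2, 623 without wild type 1 and deletion 2, 740 in the wild types alone, 62 in the deletions alone and 488 to 1621 over the left-out libraries. Members called by library number went from 12 to 16 with DESeq2, 5 without wild type 1 and deletion 2, 1 in each genotype alone and 2 to 10 over the left-out libraries. The values for each genotype alone are contrasts of 1 fit to all libraries. These contrasts and the fit without both libraries were chosen after seeing the data. Genes called for the interaction went from 10 to 157 with DESeq2 and 0 to 265 over the left-out libraries. The causes were not tested. Car9, with as few as 19 counts in a library, had the widest interval of the members. With 4 and 5 libraries, changes near 1.5-fold were mostly missed in simulated data.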
